A study of Mus musculus with 12 samples.

Results

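Liver chemokine messenger RNA was compared between mice lacking prohibitin 1 in adipocytes and wild-type mice. The genes were 10 chemokine ligands chosen by symbol, Ccl2, Ccl5, Ccl6, Ccl9, Cxcl1, Cxcl9, Cxcl10, Cxcl12, Cxcl13 and Cxcl14, and all 10 were found among the 15140 genes of the deposited count table. The KO group held 6 liver libraries labelled Phb1 KO, from Phb1adipo-/- mice, and the WT group held 6 liver libraries from wild-type mice. All were male and entered the diet at 7 to 8 weeks of age. Both groups ate a high-fat diet with 60 kcal% fat for 3 months, so no lean animals stand beside them. The promoter that drove the deletion is not given in the sources used here, and the deletion was aimed at fat cells, so the liver itself was not the targeted tissue. The labels do not tie libraries to single animals or cultures, and p-values therefore measure the spread between libraries, which may be technical.

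Chemokines are small secreted proteins that draw leukocytes along a gradient by binding receptors of the G protein-coupled family. The CC and CXC classes are named for the spacing of the cysteines near the start of the mature protein. In liver, macrophages, stellate cells, sinusoidal endothelium and hepatocytes can all make them, and in fatty liver disease they are best known for recruiting monocytes, T cells and neutrophils. The study asked how loss of adipocyte prohibitin 1 bears on liver fat, inflammation and fibrosis, and the comparison of chemokine genes addresses the inflammatory part.

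The 6 KO libraries held 34121087 to 37973022 counted reads each, against 30348123 to 40828767 in the 6 WT libraries. Levels are given in CPM, read counts as parts of the library total after TMM, a correction for differences in library composition. The prohibitin 1 gene, listed as Phb, had 88.6 to 100 CPM in KO livers and 80 to 91.2 CPM in WT livers (log2 fold change 0.15 ± 0.05 SE, edgeR adjusted p = 0.144), which checks nothing, since the liver was not the targeted tissue. The tissue label was borne out by the sum of 8 hepatocyte markers, which lay between 80595 and 110656 CPM in KO, against 77920 to 112621 CPM in WT. Over all 15000 genes tested, 396 changed, meaning that the Benjamini-Hochberg adjusted p of edgeR's quasi-likelihood test was under 0.05. That number ran from 25 without WT library 4 to 700 without WT library 6.

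None of the 10 chemokine genes passed that test, against 2.64% of all genes tested (1.49% lower and 1.15% higher in KO). With no adjustment, 4 had a p under 0.05 in the same edgeR test, against 21.2% of all genes in either direction and 10.6% in the lower direction, which is theirs. DESeq2 called 3 of the 10 (Ccl6, Ccl9 and Cxcl13), against 4.27% of all its genes lower in KO. The authors' deposited table had 2 of the 10 under an adjusted p of 0.05 (Ccl9 and Cxcl13), against 5.58% of its genes in either direction and 2.98% lower in KO. The log2 fold change of KO over WT was negative for 9 of 10, with a median of -0.67, whereas 49.4% of all genes tested were negative and their median was 0.00. Ccl2 alone was positive, and the signs of Ccl2 and Cxcl14 turned when single libraries were left out. The groups overlapped for all 10, while 2.53% of all genes had groups that did not overlap. The 95% intervals lay wholly below 0 for Ccl6, Ccl9, Cxcl12 and Cxcl13 (edgeR, unadjusted), the same criterion as an unadjusted p under 0.05.

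**Figure D1:**
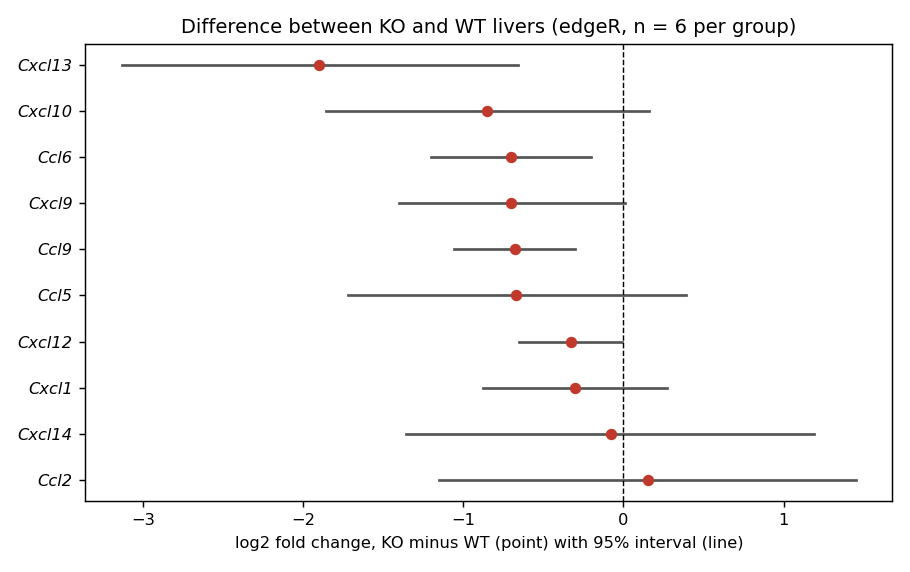
Log2 fold change of KO over WT (x axis) for each chemokine gene (rows), with points for the edgeR estimate and lines for the 95% interval, n = 6 libraries per group. The intervals of Ccl6, Ccl9, Cxcl12 and Cxcl13 lie below 0, from -1.90 for Cxcl13 to -0.33 for Cxcl12, and no gene passes after adjustment over all genes.

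The upstream sequences of the 5 members with the lowest fold changes are shown as a description, and shared regulation was not tested. Each is the 250 bases before the RefSeq start of the gene (GRCm38.p6), written 5′ to 3′ on the gene's own strand. The windows are chr11:83593088-83593337 (minus strand) for Ccl6, chr11:83578637-83578886 (minus) for Ccl9, chr5:95956689-95956938 (plus) for Cxcl13, chr5:92328080-92328329 (minus) for Cxcl9 and chr5:92348890-92349139 (minus) for Cxcl10. Capitals mark matches to the motifs searched, on either strand.
Ccl6: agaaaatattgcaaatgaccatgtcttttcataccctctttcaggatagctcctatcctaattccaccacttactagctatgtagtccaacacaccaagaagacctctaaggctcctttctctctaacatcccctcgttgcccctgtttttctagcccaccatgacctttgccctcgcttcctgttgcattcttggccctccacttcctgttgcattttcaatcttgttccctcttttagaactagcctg
Ccl9: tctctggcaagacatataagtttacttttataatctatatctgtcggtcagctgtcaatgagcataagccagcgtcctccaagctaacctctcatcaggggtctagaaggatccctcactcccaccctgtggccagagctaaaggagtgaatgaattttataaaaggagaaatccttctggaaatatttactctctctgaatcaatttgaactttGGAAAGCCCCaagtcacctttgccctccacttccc
Cxcl13: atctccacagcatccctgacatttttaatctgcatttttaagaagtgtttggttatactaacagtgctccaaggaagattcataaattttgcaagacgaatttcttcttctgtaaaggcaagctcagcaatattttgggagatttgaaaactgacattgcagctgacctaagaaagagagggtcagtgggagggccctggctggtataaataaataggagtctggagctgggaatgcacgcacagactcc
Cxcl9: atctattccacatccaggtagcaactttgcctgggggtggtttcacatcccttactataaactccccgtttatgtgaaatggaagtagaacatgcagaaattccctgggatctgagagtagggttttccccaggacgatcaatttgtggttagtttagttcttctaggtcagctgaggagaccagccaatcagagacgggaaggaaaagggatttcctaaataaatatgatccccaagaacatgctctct
Cxcl10: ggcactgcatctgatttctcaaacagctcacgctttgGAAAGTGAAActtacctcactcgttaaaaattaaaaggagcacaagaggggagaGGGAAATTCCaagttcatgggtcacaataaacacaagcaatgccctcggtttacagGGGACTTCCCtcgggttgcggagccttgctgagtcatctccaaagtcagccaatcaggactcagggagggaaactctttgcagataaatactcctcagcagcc

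The motifs were the interferon-stimulated response element ISRE (GAAA, any 2 bases, GAAA), the GAS element (TTCNNNGAA) and the NF-kB consensus. ISRE letters occurred in 2.97% of 32817 windows of the same length, GAS letters in 7.01% and the NF-kB consensus in 3.9%. Windows were held for 8 of the 10 members. The Cxcl10 window carried an ISRE match (GAAAGTGAAA, 213 to 204 bases before the start) and 2 NF-kB matches (GGGAAATTCC, 159 to 150, and GGGACTTCCC, 103 to 94), none of which overlapped another. Ccl9 carried 1 NF-kB match on the opposite strand (GGAAAGCCCC, 35 to 26 bases before the start). The windows of Ccl6, Cxcl9 and Cxcl13 held no match to these letters. In the window of Cxcl1, which is not shown, overlapping NF-kB matches on both strands lay 71 to 61 bases before the start, and in that of Cxcl14 an ISRE match lay at 172 to 163 and a GAS match at 191 to 183. Ccl6 and Ccl9 shared a run of 13 bases (gccctccacttcc), the longest run shared by any of the 28 pairs of windows. A match is a description of letters and not a measured binding site.

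The levels spanned a wide range. Per kilobase of exon, Cxcl12 was the most abundant, at 43.4 ± 12.5 in KO and 54.6 ± 4.55 in WT (CPM per kilobase, SD, n = 6 each), and Ccl9 came next at 14.6 ± 3.98 in KO and 23.3 ± 4.72 in WT. Cxcl12 lay above Ccl9, and Ccl9 above Cxcl1, in 12 of 12 libraries with no overlap of their ranges. Below them, in the order Cxcl1, Cxcl9, Ccl6, Cxcl10, Cxcl14, Ccl2, Ccl5 and Cxcl13, each gene's range overlapped that of its neighbour. The means over 12 libraries in this lower part fell between 4.09 CPM per kilobase for Cxcl1 and 0.597 for Cxcl13. Cxcl14 exceeded Ccl2, its neighbour, in only 6 of 12 libraries. Lengths are the union of annotated exons in GENCODE M21, 8176 bases for Cxcl12 and 960 for Ccl5, so a gene with long unused exons would be understated.

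**Figure D2:**
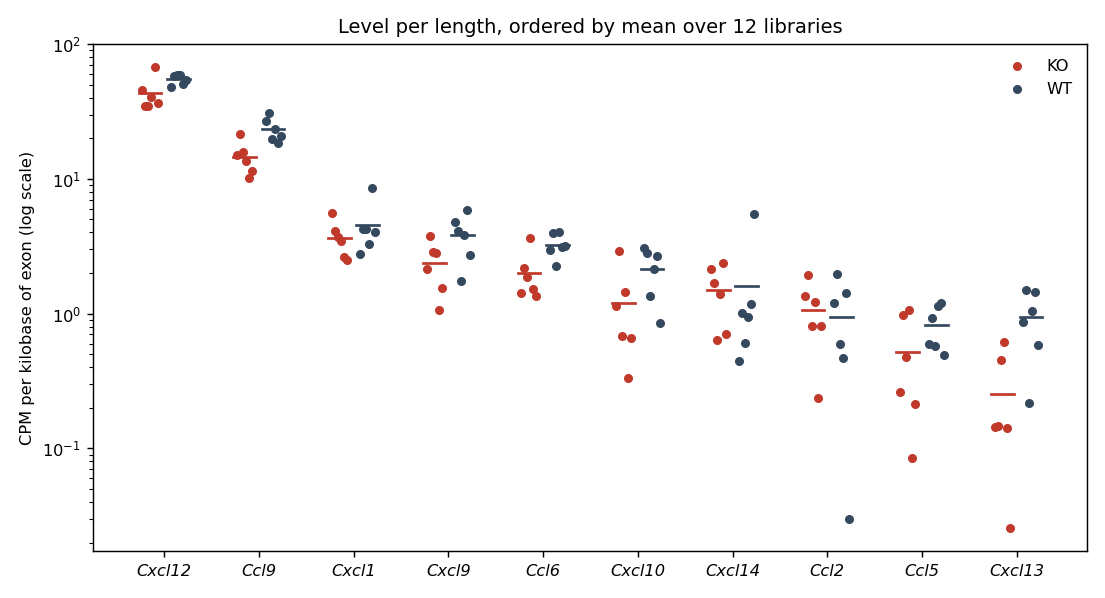
Level per length (y axis, CPM per kilobase of exon, log scale) for each chemokine gene (x axis, ordered by the mean over 12 libraries), with KO points left of WT points and bars at the group means. Cxcl12 and Ccl9 stand above the other 8 genes, whose ranges overlap those of their neighbours.

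The CC chemokines Ccl6 and Ccl9 are rodent ligands of the receptor CCR1 and are made mainly by macrophages and other myeloid cells. Their genes lie side by side on chromosome 11, separated by 9245 bases (Ccl9, ENSMUSG00000019122, 83572919 to 83578636; Ccl6, ENSMUSG00000018927, 83587882 to 83593087; both minus strand, GRCm38). Ccl9 ran from 30.8 CPM over a median of 43.5 to 65.1 CPM in KO and from 56.5 over 67.1 to 93.9 CPM in WT. In 5 of 6 KO libraries it was below every WT library, and KO library 2 alone, at 65.1 CPM, reached into the WT range. It averaged 44.4 ± 12.1 CPM in KO and 71.0 ± 14.4 CPM in WT (SD, n = 6 each), a log2 fold change of -0.68 ± 0.18 (SE; 95% interval -1.06 to -0.30). The edgeR Benjamini-Hochberg adjusted p was 0.0593, just short of the threshold, and the exact two-sided permutation p for this gene alone was 0.00866, unadjusted. Without KO library 2 the value was -0.82 and passed (edgeR adjusted p = 0.0285). It was the only single omission that passed, and the edgeR adjusted p of the others reached 0.131. In the authors' deposited table Ccl9 had a log2 fold change of -0.67 and an adjusted p of 0.0252.

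Ccl6 was less abundant per length than Ccl9, at 2.00 ± 0.853 in KO and 3.25 ± 0.652 in WT (CPM per kilobase, SD, n = 6 each). In CPM it ran from 2.45 over a median of 3.05 to 6.50 CPM in KO and from 4.06 over 5.65 to 7.17 CPM in WT. KO libraries 1, 2, 3, 5 and 6 lay below all WT libraries, while KO library 4 held the 6.50 CPM. The averages were 3.59 ± 1.53 CPM in KO and 5.83 ± 1.17 CPM in WT (SD, n = 6 each), with a log2 fold change of -0.70 ± 0.23 (SE; edgeR adjusted p = 0.111; exact permutation p = 0.0195, unadjusted). Without KO library 4 the value was -0.96 and passed (edgeR adjusted p = 0.0237). No other single omission passed, and their edgeR adjusted p reached 0.226. The authors' deposited table gave Ccl6 a log2 fold change of -0.69 and an adjusted p of 0.0542.

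Macrophage markers were lower in the same livers. Of 14 macrophage and Kupffer cell markers tested, 14 had negative fold changes with a median of -0.63. Over all genes tested, 49.4% were negative and the median was 0.00. Of the 14 markers, 3 fell, against 1.49% of all genes. They were Cd5l by 1.10 ± 0.19, Adgre1 by 0.87 ± 0.18 and Vsig4 by 0.79 ± 0.18 (log2, SE; edgeR adjusted p = 0.0194, 0.0266 and 0.0368). The fourth by p, C1qc, stood at -0.54 ± 0.15 (edgeR adjusted p = 0.075). The summed level of the list ran from 244 to 451 CPM in KO and from 402 to 624 CPM in WT, and none of its genes was at 0 in any library. KO library 4, with the highest Ccl6 among KO libraries, also had the highest summed macrophage markers among them, 451 CPM against 244 to 302 CPM in the other KO libraries. Ccl9 did not follow that order, since it was highest among KO libraries in KO library 2, at 65.1 CPM with summed markers of 301 CPM, and stood at 41.4 CPM in KO library 4. The number passing was 0 with WT library 2 or 4 left out, 1 with KO library 6 or WT library 5 left out, 5 with KO library 2 left out and 9 with KO library 4 left out, and DESeq2 gave 11. The part that macrophage content played in the chemokine values was not tested. In bulk liver RNA, fewer cells of a type and less RNA per cell cannot be told apart.

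Ccl2 and Ccl5 lie in the wider chromosome 11 group. Ccl2 (ENSMUSG00000035385, 82035571 to 82037453, plus strand) encodes the ligand of CCR2 that recruits monocytes. It was present at 0.27, 1.15 and 2.19 CPM (lowest, median and highest) in KO and at 0.0338, 1.02 and 2.25 CPM in WT. The groups covered much the same range, and WT library 6, with 1 count, was the lowest of all 12. KO over WT gave a log2 fold change of 0.15 ± 0.60 (SE; 95% interval -1.15 to 1.45; edgeR adjusted p = 0.915), which was -0.11 without KO library 2 and -0.10 without WT library 6. A change inside that interval was not detectable at this depth and spread.

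Ccl5 (ENSMUSG00000035042, 83525778 to 83530518, minus strand) encodes a T cell attractant made largely by T and NK cells. It ran from 0.0809 over a median of 0.356 to 1.03 CPM in KO and from 0.473 over 0.735 to 1.14 CPM in WT. Counts were as low as 3 in KO library 5 and 14 in WT library 6, so single values are coarse. KO libraries 2 and 4, at 0.939 and 1.03 CPM, lay among the WT libraries, and the other 4 lay below them all. Its log2 fold change was -0.67 ± 0.49 (SE; 95% interval -1.72 to 0.39; edgeR adjusted p = 0.462). Of 12 T and NK cell markers listed, 5 were tested, and Cd3d, Cd3e, Klrb1c, Ncr1, Gzmb and Prf1 were not among the genes counted. Of the 5, 1 fell, against 1.49% of all genes tested, and their median was -0.96. It was the T cell kinase gene Lck (log2 -1.31 ± 0.30 SE; edgeR adjusted p = 0.0394), which averaged only 0.318 CPM in KO and 0.785 CPM in WT. Cd8a stood at -1.04 ± 0.51, Gzma at -0.96 ± 0.62 and Cd4 at 0.41 ± 0.31 (log2, SE, not passing). Lck did not pass when KO library 2, 4, 5 or 6, or WT library 1, 2, 4 or 5, was left out. A filter of 1 CPM in 6 libraries removed Lck, which reached 0.461 CPM in KO and ran from 0.527 to 1.06 CPM in WT, so it was not tested there. The summed list ran from 4.31 to 5.79 CPM in KO and from 3.66 to 7.74 CPM in WT, and Cd8a, Nkg7 and Gzma were at 0 in at least 1 library. Their part in the Ccl5 values was not tested.

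**Figure D3:**
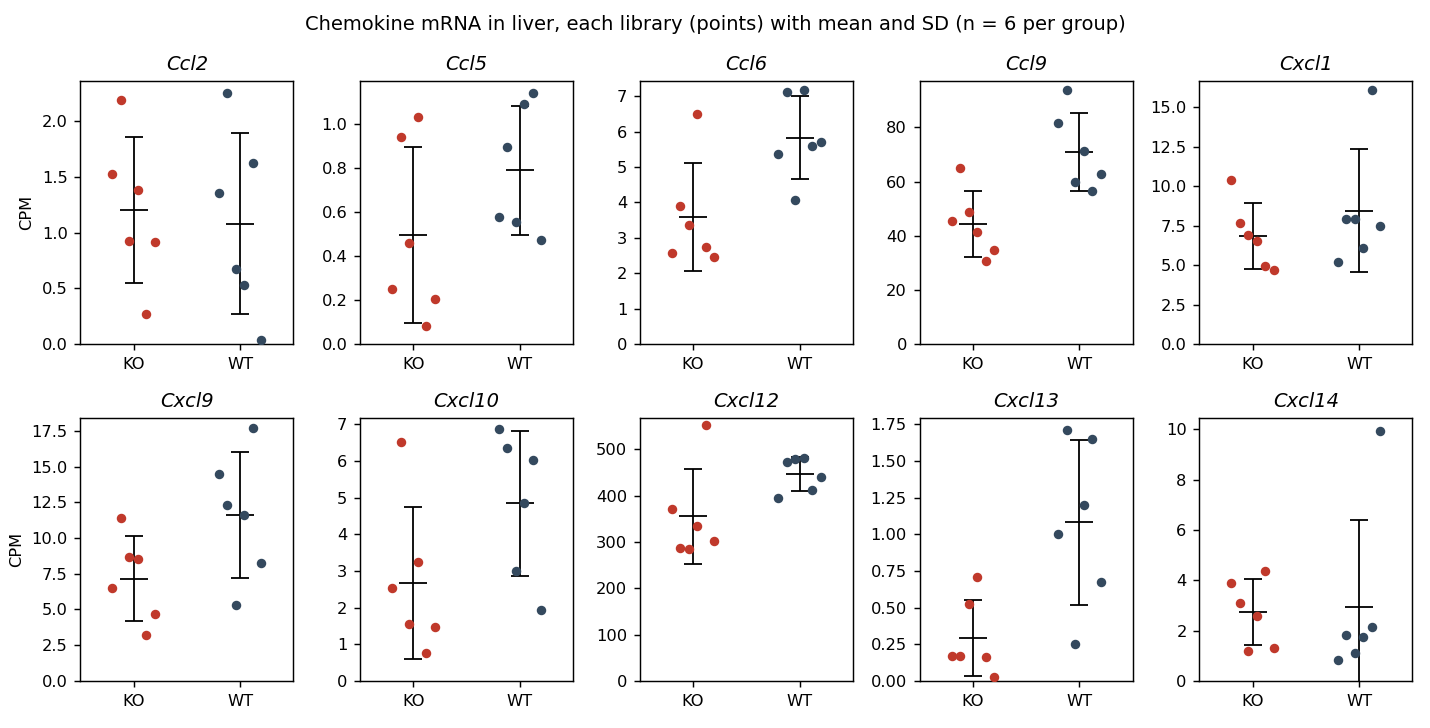
CPM (y axis, from 0) of each chemokine gene in each library (points), KO left and WT right, with the group mean and SD (bars, n = 6 each; the WT bar of Cxcl14 is cut at 0). Ccl9 shows 5 of 6 KO libraries below all WT libraries, whereas Ccl2 covers the same range in both groups.

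Cxcl9 and Cxcl10 encode ligands of CXCR3 that are induced by interferon gamma and draw activated T cells. Their genes lie on chromosome 5, minus strand, 18558 bases apart (Cxcl9, ENSMUSG00000029417, 92321347 to 92328079; Cxcl10, ENSMUSG00000034855, 92346638 to 92348889; GRCm38). Cxcl9 ran from 3.18 over a median of 7.53 to 11.4 CPM in KO and from 5.29 over 11.9 to 17.7 CPM in WT. All 6 KO libraries lay below the WT median, but only KO libraries 5 and 6 were below all WT libraries, since WT library 3 was itself at 5.29 CPM. The log2 fold change was -0.70 ± 0.32 (SE; 95% interval -1.40 to 0.01; edgeR adjusted p = 0.241; exact permutation p = 0.0844, unadjusted).

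Cxcl10 ran from 0.755 over a median of 2.04 to 6.52 CPM in KO and from 1.93 over 5.45 to 6.87 CPM in WT. KO library 2 held 6.52 CPM, above 5 of 6 WT libraries, and WT library 6 held 1.93 CPM, within the KO range. The log2 fold change was -0.85 ± 0.46 (SE; 95% interval -1.86 to 0.16; edgeR adjusted p = 0.315; exact permutation p = 0.0758, unadjusted). Without KO library 2 it was -1.34 (edgeR adjusted p = 0.0988), the lowest adjusted p of the single omissions, which reached 0.459. Cxcl10 shares 133 exon bases with Art3, which lies on the opposite strand, and the strand setting of the counting is not given, so reads there are uncertain. Art3 was at 1.34 CPM in KO and 1.41 CPM in WT on average.

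Of 11 genes of the interferon gamma route tested, 2 fell and 0 rose, and 9 were negative, with a median of -0.24. Over all genes tested, 1.49% fell and 49.4% were negative. The interferon gamma gene itself, Ifng, was listed but was not among the genes counted. The transcription factor gene Irf1 fell by 0.67 ± 0.16 (log2, SE; edgeR adjusted p = 0.0408). It averaged 22.0 ± 5.03 CPM in KO and 35.0 ± 6.38 CPM in WT (SD, n = 6 each), and 4 of its 6 KO values were under the lowest WT value. Jak2, the receptor-bound kinase gene, stood at -0.20 ± 0.07 and Gbp2, a GTPase gene induced by interferon gamma, at -0.95 ± 0.34 without passing (edgeR adjusted p = 0.13 and 0.138). No gene of the list passed when KO library 2, 3 or 6 or WT library 2, 3, 4 or 5 was left out, and 1 passed without KO library 1 or 5 or WT library 1. Cxcl11, the third CXCR3 ligand, was tested as well and stood at -0.45 ± 0.22 (edgeR adjusted p = 0.265). The receptor gene Cxcr3 had a log2 fold change of -0.01 ± 0.42 (edgeR adjusted p = 0.99).

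Cxcl13 (ENSMUSG00000023078, chromosome 5, 95956951 to 95961068, plus strand), the attractant of B cells through CXCR5, had the largest estimated difference of the 10. It ran from 0.0295 over a median of 0.168 to 0.705 CPM in KO and from 0.251 over 1.10 to 1.71 CPM in WT. The counts behind these values were 1 to 26 in KO and 10 to 67 in WT. Below all WT libraries lay 4 of 6 KO libraries, while KO library 3, at 0.523 CPM, was above WT library 3, and KO library 4, at 0.705 CPM, was above WT libraries 3 and 6. It averaged 0.292 ± 0.261 CPM in KO and 1.08 ± 0.566 CPM in WT (SD, n = 6 each), a log2 fold change of -1.90 ± 0.57 (SE; 95% interval -3.13 to -0.66). The edgeR adjusted p was 0.0888 and the exact permutation p 0.0152, unadjusted. Without KO library 4 the value was -2.39, just past the threshold (edgeR adjusted p = 0.0495). No other single omission passed, and their edgeR adjusted p reached 0.18. The authors' deposited table gave -1.88 with an adjusted p of 0.0309. Of 5 B and plasma cell markers tested, 0 passed and 5 were negative, against 49.4% of all genes tested, with a median of -0.56. Ms4a1 (-0.73 ± 0.36), Cd79b (-0.56 ± 0.32) and Cd79a (-0.44 ± 0.35) were among them (log2, SE; edgeR adjusted p from 0.26 to 0.502). The summed level of the list ran from 1.91 to 4.93 CPM in KO and from 3.82 to 6.56 CPM in WT, with no marker at 0, and the part of these markers in the Cxcl13 values was not tested.

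Cxcl12 (ENSMUSG00000061353, chromosome 6, 117168535 to 117181367, plus strand) encodes the homeostatic ligand of CXCR4 and the atypical receptor ACKR3. It ran from 285 over a median of 317 to 553 CPM in KO and from 395 over 456 to 482 CPM in WT. The KO libraries split to either side of the WT range, with 5 of 6 below all WT libraries and KO library 5 above them all. The spread was accordingly 28.9% of the mean in KO and 8.33% in WT. The log2 fold change was -0.33 ± 0.15 (SE; 95% interval -0.65 to -0.01; edgeR adjusted p = 0.215; exact permutation p = 0.0433, unadjusted). Without KO library 5 it was -0.51 and passed (edgeR adjusted p = 0.0211). No other single omission passed, and their edgeR adjusted p reached 0.349. The receptor genes Cxcr4 (0.06 ± 0.32) and Ackr3 (0.13 ± 0.40) did not pass (log2, SE). Markers of cells that can make Cxcl12 included 0 passing genes among 8 for sinusoidal endothelium (median -0.15, 8 negative, against 49.4% of all genes tested). They included 0 among 8 for stellate cells (median 0.02). The smallest p values were those of Kdr (-0.29 ± 0.13), Stab2 (-0.20 ± 0.11), Fcgr2b (-0.19 ± 0.14) and Clec4g (-0.10 ± 0.16) for endothelium and of Hgf (-0.25 ± 0.26), Dcn (0.15 ± 0.16), Rgs5 (-0.10 ± 0.14) and Des (0.12 ± 0.16) for stellate cells (log2, SE).

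Cxcl1 and Cxcl14 showed no difference beyond the spread. Cxcl1 (ENSMUSG00000029380, chromosome 5, 90891241 to 90893115, plus strand), a neutrophil attractant acting through CXCR2, ran from 4.69 over a median of 6.72 to 10.4 CPM in KO and from 5.24 over 7.71 to 16.1 CPM in WT. WT library 5 stood alone at the top, and the log2 fold change of -0.30 ± 0.27 (SE; 95% interval -0.88 to 0.27; edgeR adjusted p = 0.547) was -0.02 without it. Of 8 neutrophil markers listed, Ly6g, Cxcr2 and Retnlg were not among the genes counted. The neutrophil markers had 0 passing of 5 tested, all negative, against 49.4% of all genes tested, with a median of -0.63. They were led by Csf3r (-0.51 ± 0.22), S100a8 (-0.71 ± 0.37), Mpo (-0.75 ± 0.39) and S100a9 (-0.63 ± 0.33; log2, SE), and their sum ran from 6.43 to 14.3 CPM in KO and from 8.18 to 22.9 CPM in WT. Cxcl14 (ENSMUSG00000021508, chromosome 13, 56288643 to 56296551, minus strand), a homeostatic chemokine of epithelia, ran from 1.17 over a median of 2.83 to 4.37 CPM in KO and from 0.818 over 1.79 to 9.93 CPM in WT. The KO median was the higher, while WT library 6, at 9.93 CPM, was more than any other library. For Cxcl14 the log2 fold change was -0.08 ± 0.59 (SE; 95% interval -1.36 to 1.19; edgeR adjusted p = 0.952), and it was 0.84 without WT library 6 (edgeR adjusted p = 0.203), 0.06 without KO library 3 and 0.05 without KO library 6. A change inside that interval was not detectable at this spread.

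Of the 10 chemokines, 6 tended to be high or low together from library to library. Over the 45 pairs, Pearson correlations of log2 CPM across 12 libraries passed for 12 pairs (two-sided permutation test, Benjamini-Hochberg adjusted over the 45, adjusted p from 0.00596 to 0.0457). All 12 were positive and lay among 6 genes, Ccl5, Ccl6, Ccl9, Cxcl9, Cxcl10 and Cxcl13, which form 15 pairs, and the lowest r was 0.69. In Spearman's correlation 8 of the 12 also passed. The closest were Ccl6 with Cxcl13 (r = 0.88, permutation p = 0.00031, adjusted 0.00596; rho = 0.88, permutation p = 0.00035, adjusted 0.0157) and Cxcl9 with Cxcl10 (r = 0.87, permutation p = 0.0003, adjusted 0.00596; rho = 0.83, permutation p = 0.00132, adjusted 0.0198). Part of a pooled correlation is the difference between the groups. With the group means removed, r stayed at 0.77 for Ccl6 with Cxcl13 and 0.82 for Cxcl9 with Cxcl10, but was 0.39 for the neighbouring genes Ccl6 and Ccl9, whose pooled r was 0.71 (permutation p = 0.0111, adjusted 0.0453; rho = 0.64, permutation p = 0.0273, adjusted 0.101).

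Without the 2 libraries farthest from the median of the gene named first, r was 0.82 for Ccl6 with Cxcl13 and 0.78 for Cxcl9 with Cxcl10 (permutation p = 0.00451 and 0.00993, unadjusted). Of the 12 pairs, 6 kept an unadjusted permutation p under 0.05 with the 10 libraries left, with r from 0.64 to 0.82. The other 6 had r from 0.29 to 0.63 and permutation p from 0.0515 to 0.417, and fewer libraries alone raise p. The pairs nearest to 0.05 on either side had r of 0.63 and 0.64. Ccl5 with Ccl9 moved most and rests on the libraries left out, with r = 0.29 without them, against r = 0.69 with all 12 libraries (permutation p = 0.417 and 0.0122; adjusted 0.0457 with all libraries; rho = 0.55, permutation p = 0.0705, adjusted 0.187). KO library 5 was the lowest of all 12 for Ccl5, Ccl9, Cxcl9 and Cxcl10 and the highest for Cxcl12. KO library 6 was the lowest for Ccl6, Cxcl1 and Cxcl13, and WT library 2 was the highest for Ccl2, Ccl9 and Cxcl13. Ccl2, Cxcl1, Cxcl12 and Cxcl14 were in no passing pair of the pooled correlations. Ccl2 with Cxcl10 had a pooled r of 0.59 (permutation p = 0.0403, adjusted 0.115). With the group means removed its r was 0.83, the highest of the 45 pairs (0.93 within KO and 0.91 within WT, n = 6 each, no test). Its pooled r was 0.47 without the 2 libraries farthest from the Ccl2 median (permutation p = 0.171, unadjusted). The pooled r of Cxcl12 with the other 9 members ran from -0.43 to 0.34 with 0 passing (lowest adjusted p = 0.367, permutation). With the group means removed, 8 of those 9 were negative, and r with Cxcl9, the most negative, was -0.67 (-0.78 within KO and -0.61 within WT, n = 6 each, no test). Within WT the other values were nearer 0, and those with Ccl5 (0.13), Ccl6 (0.16), Ccl9 (0.08) and Cxcl14 (0.05) were positive. Without the 2 libraries farthest from the Cxcl9 median, the pooled r of Cxcl12 with Cxcl9 was 0.16, against -0.15 with all 12 libraries (permutation p = 0.647 and 0.63, unadjusted).

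**Figure D4:**
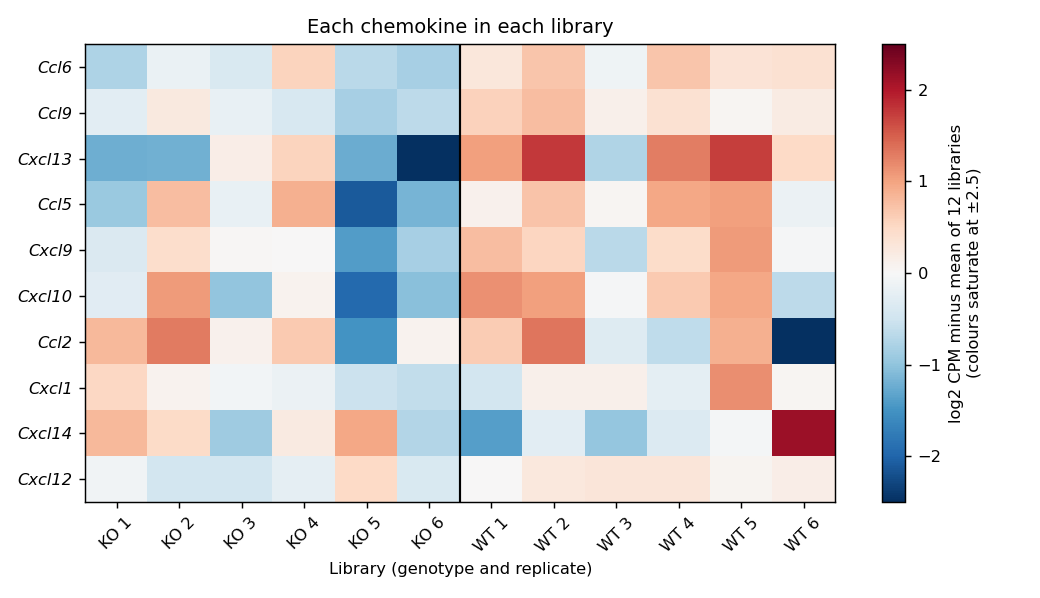
Log2 CPM of each chemokine gene (rows) in each library (columns, KO left of the line and WT right) minus the gene's mean over the 12 libraries, with colours saturated at ±2.5. Libraries KO 5 and KO 6 are low in most of the upper 6 rows, while Cxcl12 in KO 5 is the highest of its row.

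**Figure D5:**
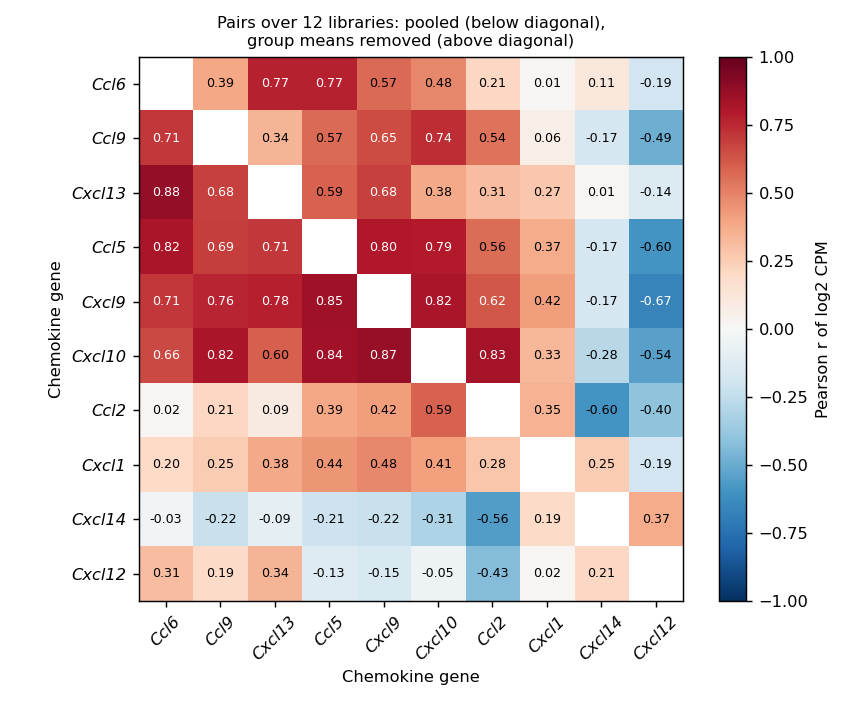
Pearson r of log2 CPM over 12 libraries for every pair of chemokine genes (both axes), pooled below the diagonal and with the group means removed above it. The pooled values among Ccl5, Ccl6, Ccl9, Cxcl9, Cxcl10 and Cxcl13 are all positive and reach 0.88, and 8 of the 9 values of Cxcl12 above the diagonal are negative.

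Other genes of the chemokine system mostly did not pass. Of 28 further chemokine ligands listed, 9 were tested and 0 passed, 5 with negative and 4 with positive fold changes (median -0.10). Besides Cxcl11, they included the platelet chemokine gene Ppbp (-0.66 ± 0.37), the CXCR2 ligand gene Cxcl2 (-0.71 ± 0.48) and Ccl25, a ligand of CCR9 (0.17 ± 0.12; log2, SE; edgeR adjusted p = 0.327, 0.419 and 0.457). Of 19 receptor genes, 9 were tested and 0 passed (median -0.01). Cxcr6, found on T and NKT cells, stood at -1.10 ± 0.30 (edgeR adjusted p = 0.0663), Xcr1, a dendritic cell receptor gene, at -0.93 ± 0.40 and Ccrl2 at 0.16 ± 0.25 (log2, SE). Cxcr6 averaged only 0.241 CPM in KO and 0.518 CPM in WT, and Xcr1 0.309 and 0.585 CPM, so both rest on few counts. In 6 dendritic cell markers 0 passed, 6 were negative and the median was -0.30, with Flt3 at -1.23 ± 0.47, Zbtb46 at -0.17 ± 0.11 and Clec9a at -0.25 ± 0.20. Flt3 too was low, averaging 0.204 CPM in KO and 0.477 CPM in WT. The receptor genes for Ccl2 and for Ccl6 and Ccl9, Ccr2 (0.18 ± 0.44) and Ccr1 (-0.17 ± 0.74), did not pass. Ccr1, Ccr2, Cxcr3 and Cxcr4 are named as the receptors of members, a choice made after their values were seen. Without WT library 6, 2 receptor genes passed, while the calls over all genes were 700, against 396 with all libraries.

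The atypical receptors, which bind and clear chemokines, had 0 passing of 4 tested (Ackr4 -0.25 ± 0.16, Ackr1 0.48 ± 0.32, Ackr2 0.24 ± 0.35, and Ackr3 above). Monocyte markers had 0 passing of 6, 4 negative and 2 positive (median -0.32), with Ly6c2 at -0.87 ± 0.29, Plac8 at -0.35 ± 0.17, Chil3 at -0.44 ± 0.38 and Itgam at -0.29 ± 0.33 (log2, SE). The 2 positive ones were Cx3cr1 (0.23 ± 0.56) and Ccr2. Of 14 genes of the NF-kB route, 0 passed and the median was -0.05, with Rel at -0.29 ± 0.11, Nfkbia at -0.28 ± 0.17, Rela at 0.14 ± 0.09 and Ikbkb at -0.08 ± 0.07. Of 14 genes that process chemokines or present them on glycosaminoglycans, 1 fell, against 1.49% of all genes tested, and the median was -0.10. The gene that fell was Sdc3, which encodes a heparan sulphate proteoglycan (log2 -0.68 ± 0.14 SE; edgeR adjusted p = 0.0267). Sdc3 averaged 32.9 ± 7.99 CPM in KO and 52.7 ± 6.29 CPM in WT (SD, n = 6 each), and 5 of 6 KO values were under the lowest WT value. Dpp4, a protease that clips Cxcl10 and Cxcl12, stood at -0.20 ± 0.07, the gelatinase gene Mmp9 at -1.08 ± 0.37 and the heparan sulphate sulphotransferase gene Ndst1 at -0.24 ± 0.09, none of which passed (edgeR adjusted p from 0.123 to 0.132). With KO library 2 or 6, or WT library 2, 4 or 5, left out none of this list passed, and with KO library 5 or WT library 3 left out 2 did. Cholangiocyte markers had 0 passing of 5, all positive (median 0.40), led by Krt19 (0.80 ± 0.45), Krt7 (0.61 ± 0.41), Epcam (0.40 ± 0.38) and Spp1 (0.19 ± 0.32), and hepatocyte markers 0 of 8 (median 0.07), led by Ttr (0.22 ± 0.10), Cps1 (0.22 ± 0.11), Apob (-0.15 ± 0.09) and Serpina1c (0.22 ± 0.17). Of 5 adipocyte markers Cfd alone was tested (1.02 ± 0.91; edgeR adjusted p = 0.555).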

How the data were processed

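Liver polyA RNA of 12 libraries, 6 KO and 6 WT, was analysed from a deposited table of whole-number read counts per gene with no scaling evident in the values, deposited by the authors, per the file headers. It also holds the authors' deposited log2 fold changes, p-values, test score and mean normalized signal, in columns named as DESeq2 writes them. The submitters' processing notes name FastQC, Trimmomatic, HISAT2, SAMtools, featureCounts and DESeq2, without versions, and the build GRCm38. Annotation release, strand setting and treatment of shared reads are not stated there. Of 15344 rows, 204 repeats with identical counts were left out. Groups came from the titles.

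The main comparison used the quasi-likelihood F test of edgeR 4.0.16 under R 4.3.3 (robust, TMM, filterByExpr, two-sided) over 15000 genes; the filter removed 140. The threshold was a Benjamini-Hochberg adjusted p of 0.05. Standard errors were the absolute log2 fold change divided by the square root of F. Single genes had an exact permutation over 924 splits (smallest p 0.00216). Correlations used log2 CPM (prior count 2) and 100000 permutations. The fits were tested on simulated data, with changes planted only in genes averaging 1 CPM or more. That test covered neither Ccl5 and Cxcl13 nor changes as small as those estimated for most members. Total counts per library were 30348123 or more, and genes near 1 CPM rest on few counts (31 for Ccl2 in KO library 6). Exon lengths came from GENCODE M21 and upstream sequences from RefSeq (GRCm38.p6).

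Alternatives were DESeq2 1.42.0, limma-voom (limma 3.58.1), RLE factors, total counts only, no filter, a replicate block, a filter of 1 CPM in 6 libraries and each library left out. All 10 members are named, and of each list the passing genes and up to 4 with the smallest p. Some genes of these lists are not reported here by name. The members and lists were chosen with earlier results of these data known.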

Additional observations from a re-analysis of the deposited data

Results flagged for a closer look

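Of 20 groups of 6 libraries examined (10 chemokine genes in KO and in WT, log2 CPM), 1 held a library far from the rest, as many as chance gives at about 1 in 20. In WT, Cxcl1 was high in library 5, at 16.1 CPM against 5.24 to 7.95 CPM in the other WT libraries. The gap to the nearest library took 0.63 of the group's range, against a critical value of 0.625.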

How the results depend on the processing

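Under DESeq2, Ccl6 (-0.70, adjusted p = 0.0454), Ccl9 (-0.68, 0.00589) and Cxcl13 (-1.89, 0.0223) passed, so 3 members were called. The calls over all genes came to 1214 (646 lower in KO), those among receptors to 2 and those among processing genes to 2. With total counts only, 257 genes and 1 gene of the interferon gamma route passed. The sign of Cxcl14 turned with limma-voom (0.37).

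With the replicate number as a block, Ccl9 passed (-0.70, adjusted p = 0.0122), 1 member was called, Cxcl14 was at 0.37, 0 genes of the interferon gamma route and 0 T and NK markers passed, and 374 genes passed in all. Whether same-numbered libraries pair is not settled by these values. Their deviations correlated at -0.20 to 0.36, with 4 of 6 pairs over 0.1 and 5 of 12 libraries closest to their own number.

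Leaving out each library gave -0.11 to 0.50 for Ccl2, -0.96 to -0.62 for Ccl6, -0.82 to -0.58 for Ccl9, -0.51 to -0.28 for Cxcl12, -2.39 to -1.68 for Cxcl13 and -0.28 to 0.84 for Cxcl14. It gave 25 to 700 genes called, 17 to 380 of them lower in KO, 0 to 2 members, 0 to 2 receptors, 0 to 2 interferon gamma route genes and 0 to 2 processing genes. The cause of these changes was not tested. Ccl5, Cxcl1, Cxcl9 and Cxcl10 kept their sign and passed in none of the alternatives run; Ccl5 and Cxcl13 had no value with at least 1 CPM in 6 libraries. The 12 passing pairs became 13 or 12 under the other scaling and prior count. Low counts limit Ccl2, Ccl5 and Cxcl13.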

Other observations

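Among 12884 other genes averaging 1 CPM or more, the 5 whose log2 CPM followed Ccl9 most closely over the 12 libraries were Gbp10 (r = 0.92), Tut4 (0.91), Aqp4 (0.91), Kidins220 (0.90) and Ifit3b (0.90), with rho from 0.86 to 0.95. With the group means removed, their r was 0.75 to 0.88. For Cxcl12 the 5 were Zfp563 (r = 0.91), Lgals4 (0.90), Hus1 (0.90), Rasl11b (0.90) and the clock output gene Hlf (0.89), with rho from 0.83 to 0.94 and r from 0.84 to 0.90 with the group means removed. These are the largest of all correlations ranked, over libraries that share the group difference, and are given as a description with no test.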
